A study of Mus musculus with 6 samples.

Results

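The miR-30 family was followed through small RNA libraries of adult mouse brain with and without the RNA-editing enzyme ADAR2. Members were taken by name, as miR-30a, miR-30b, miR-30c, miR-30d, miR-30e and their star arms. This gave 11 of the 1055 mature miRNAs in the read tables, 5 guide arms and 6 star arms. The rule used names only and no measured value, although it was set with earlier results of these data known. The libraries came from whole brains of female 129SV mice, 3 wild type and 3 Adar2-/-, killed at 5.5 months. Mice of both genotypes were siblings and carried only the pre-edited Gria2 allele (Gria2 R/R), which rescues the early death of Adar2-/- mice, so each comparison here is between 2 groups that share this allele. ADAR2 was missing from all cells of the animal, and each brain gave 1 library. Homogenised whole brain holds every cell type of the organ, so fewer cells of a type and less miRNA per cell cannot be told apart in these values.

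The wild-type libraries held 12449633 to 23471819 mapped miRNA reads and the Adar2-/- libraries 18645810 to 23935544. Levels are given as RPM, scaled to 1000000 mapped miRNA reads in each library, and since mature miRNAs have nearly the same length and each read is a whole miRNA, no correction for length is needed between them. The neuronal miRNAs miR-124, miR-128, miR-137 and miR-138 were present in every library, with summed levels of 21717 to 38594 RPM in wild type and 22661 to 47487 RPM in Adar2-/-. Wild-type replicate 1 stood apart in miR-375, a miRNA of pituitary and pancreatic endocrine cells, at 3294 RPM against 42.9 to 113 RPM in the other 5 libraries. Adar2-/- replicate 3 stood apart in miR-182 and miR-183, miRNAs of sensory and pineal cells. Summed with miR-96, of the same cells, they stood at 19159 RPM there against 89664 to 186903 RPM elsewhere. miR-96 alone was lowest there too, at 70.6 RPM, but close to the 85.0 RPM of wild-type replicate 3. Adar2 mRNA was not analysed here, and these counts offer no check of the genotypes.

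A miRNA hairpin is cut by DROSHA and then by DICER into a duplex of 2 arms. The guide arm is loaded into an Argonaute protein and pairs with mRNAs mainly through its seed, the bases at positions 2 to 8, whereas most of the passenger (star) arm is discarded. The miR-30 family is found throughout vertebrates and is expressed in many tissues, among them brain, kidney and heart. Its well-studied targets include the mRNAs of Beclin 1, an initiator of autophagy, and of connective tissue growth factor.

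The sequences of miR-30 arms show which members can act on the same targets and which can be mistaken for each other in a read table. RefSeq (GRCm38.p6 table) held 7 of the 11 members, and miR-30b, miR-30b*, miR-30d and miR-30d* are given by name only. The guides are printed 5′ to 3′ with the seed in capitals.
miR-30a: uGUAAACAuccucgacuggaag
miR-30c: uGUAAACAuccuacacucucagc
miR-30e: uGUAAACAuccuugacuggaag
These 3 guides shared the seed and their first 12 bases. The star arms, printed in the same way, fell into 2 seed groups.
miR-30a*: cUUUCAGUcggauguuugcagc
miR-30e*: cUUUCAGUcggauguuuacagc
miR-30c-1*: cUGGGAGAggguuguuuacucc
miR-30c-2*: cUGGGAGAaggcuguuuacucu
miR-30a* and miR-30e* shared 1 seed, and miR-30c-1* and miR-30c-2* shared another.

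The 6 hairpins lie in 3 neighbouring pairs. On NCBIM37, the build that the submitters name as mm9, Mir30a lies at chr1:23279108-23279178 and Mir30c-2 at chr1:23298540-23298623, both on the plus strand, 19361 bp apart and outside other annotated genes. Mir30e, at chr4:120445211-120445302, and Mir30c-1, at chr4:120442139-120442227, lie on the minus strand 2983 bp apart, both in an intron of Nfyc, the gene of a subunit of the transcription factor NF-Y, and on the same strand as Nfyc. Mir30b and Mir30d lie on chromosome 15, 3697 bp apart on the minus strand and outside other annotated genes. The guide miR-30c is the same in Mir30c-1 and Mir30c-2, so its reads cannot be given to either hairpin, whereas miR-30c-1* and miR-30c-2* each come from 1 hairpin.

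Among the guides, miR-30d and miR-30a carried most of the reads. miR-30d stood at 15756, 35309 and 29504 RPM in the wild-type libraries, replicates 1 to 3, and at 26439, 31007 and 28922 RPM in the Adar2-/- libraries. miR-30a stood at 13934, 25972 and 30544 RPM in wild type and at 19563, 25308 and 22257 RPM in Adar2-/-. For both, wild-type replicate 1 was the lowest of the 6 libraries and the genotypes overlapped. Together miR-30a and miR-30d made up 87.0% to 92.0% of the guide reads of a library. Among the 1055 miRNAs miR-30d ranked from 6 to 13 and miR-30a from 8 to 16.

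The other guides were less abundant. miR-30e stood at 2671, 3437 and 4488 RPM in wild type and at 3452, 4603 and 4306 RPM in Adar2-/-. miR-30c stood at 1242, 1544 and 1905 RPM in wild type and at 1539, 2118 and 2783 RPM in Adar2-/-. miR-30b stood at 262, 356 and 397 RPM in wild type and at 286, 432 and 576 RPM in Adar2-/-. Again wild-type replicate 1 was the lowest library for each of these guides, and wild-type and Adar2-/- libraries overlapped.

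The order miR-30a, miR-30e, miR-30c, miR-30b held in each of the 6 libraries. miR-30a exceeded miR-30e by 5.17-fold to 7.56-fold within a library, miR-30e exceeded miR-30c by 1.55-fold to 2.36-fold, and miR-30c exceeded miR-30b by 4.33-fold to 5.39-fold. Across libraries the levels of miR-30e and miR-30c still overlapped. miR-30d lay above miR-30a in 5 of 6 libraries and just below it in wild-type replicate 3, with ratios from 0.966 to 1.36, so these neighbours did not differ beyond their spread.

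Summed, the 5 guides accounted for 3.39%, 6.66% and 6.68% of mapped miRNA reads in the wild-type libraries (5.58% ± 1.90, SD, n = 3). They accounted for 5.13%, 6.35% and 5.88% in the Adar2-/- libraries (5.79% ± 0.615, SD, n = 3). The difference of 0.209 percentage points was smaller than the SD of either genotype. The difference turned to -0.886 percentage points without wild-type replicate 1 and to -0.0712 without Adar2-/- replicate 2, so its direction rested on single libraries.

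**Figure D1:**
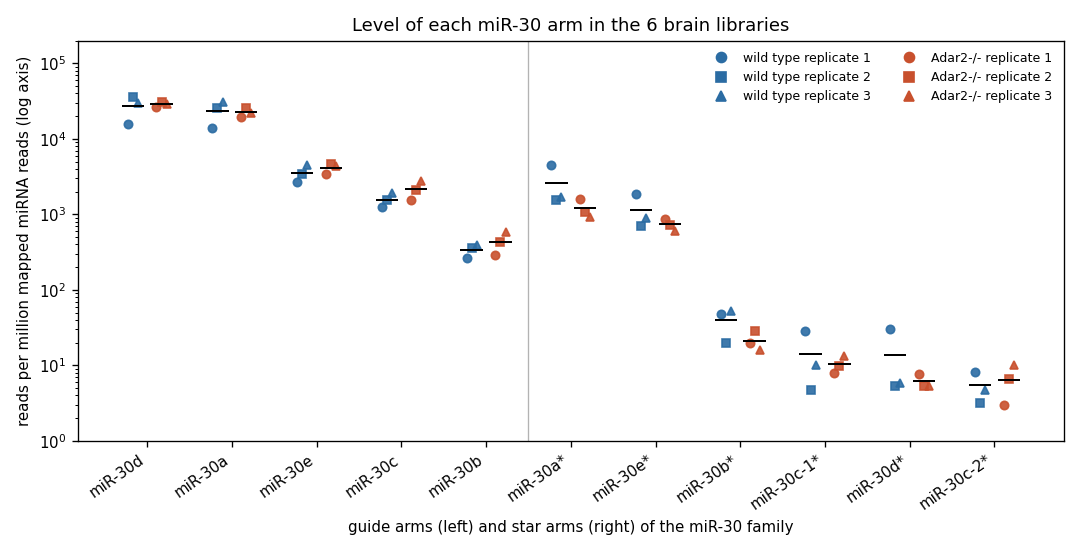
Level of the 5 guide arms (left) and 6 star arms (right) of the miR-30 family, in RPM on a log axis. Each symbol is 1 brain library, blue for wild type and orange for Adar2-/-, with the shape giving the replicate number and the black line the mean of 3 libraries. Wild-type replicate 1 (blue circle) is the lowest library for each guide and the highest for miR-30a*, miR-30e*, miR-30c-1* and miR-30d*.

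To ask whether loss of ADAR2 alters the level of these miRNAs, edgeR's quasi-likelihood test was applied to the counts of the 399 miRNAs that reached 100 reads in each of the 6 libraries, 10 of the 11 members among them. miR-30c-2* did not reach this minimum. None of the 10 members passed an adjusted p of 0.05, and 1, miR-30a*, had an unadjusted p under 0.05. Over the 399 miRNAs 0% passed the adjusted threshold, 3.26% had an unadjusted p under 0.05, and 1.00% had it with a lower level in Adar2-/-. DESeq2 called none of the 10 either, against 0.251% of the 399, and gave miR-30a*, miR-30b* and miR-30d* an unadjusted p under 0.05, against 10.0% of the 399. Without replicate 1 of both genotypes edgeR called 4.51% of the 399 miRNAs and no member. For edgeR the log2 fold changes below are positive where Adar2-/- was higher, and each member named had an adjusted p of 0.988 or 0.989.

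Of the 5 guides, 4 had a log2 fold change above 0 and 1 below, with a median of 0.22, against 0.0023 over the 399 miRNAs, of which 50.4% lay above 0. Among the 306 tested miRNAs without a star in their name, 172 lay above 0, and the median was 0.055. miR-30c had the largest value among the guides, 0.46 (standard error 0.346), and miR-30b followed with 0.35 (standard error 0.359). The value was 0.22 (standard error 0.324) for miR-30e, 0.10 (standard error 0.357) for miR-30d and -0.07 (standard error 0.358) for miR-30a. Ratios in replicate numbers set libraries of the same number against each other, although over the 399 miRNAs the numbers did not pair the libraries in their values. The Adar2-/- to wild-type ratio of miR-30c was 1.24, 1.37 and 1.46 in replicate numbers 1 to 3, and that of miR-30b was 1.09, 1.21 and 1.45. For miR-30a the same ratios were 1.40, 0.974 and 0.729. The 2 most abundant guides, miR-30a and miR-30d, were thus higher in Adar2-/- only where wild-type replicate 1 was the partner. Without that library miR-30d stood at -0.17, and with libraries left out the 5 guides ranged from -0.34 to 0.65.

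The star arms were dominated by miR-30a* and miR-30e*, which together made up 97.2% to 98.6% of the star reads of a library. miR-30a* stood at 4468, 1560 and 1688 RPM in the wild-type libraries, replicates 1 to 3, and at 1619, 1073 and 913 RPM in the Adar2-/- libraries. Wild-type replicate 1 was the highest by far, and Adar2-/- replicate 1 lay above wild-type replicate 2, so the genotypes overlapped. miR-30e* stood at 1858, 690 and 896 RPM in wild type and at 873, 727 and 608 RPM in Adar2-/-. Here too wild-type replicate 1 was the highest library, and the other 5 libraries overlapped between genotypes.

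The remaining star arms stayed under 60 RPM. miR-30b* stood at 48.5, 19.5 and 53.2 RPM in wild type and at 19.6, 28.4 and 15.8 RPM in Adar2-/-. miR-30c-1* stood at 28.1, 4.70 and 10.0 RPM in wild type and at 7.88, 9.88 and 13.2 RPM in Adar2-/-. miR-30d* stood at 30.4, 5.31 and 5.92 RPM in wild type and at 7.78, 5.38 and 5.26 RPM in Adar2-/-. The genotypes overlapped for each of these arms. miR-30c-2*, with 55 to 239 reads in a library, stood at 8.27, 3.20 and 4.77 RPM in wild type and at 2.95, 6.53 and 9.99 RPM in Adar2-/-. With the minimum lowered to 10 reads, edgeR put miR-30c-2* at 0.27 on the log2 scale (standard error 0.499, adjusted p = 0.982).

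miR-30d*, the arm opposite the most abundant guide, was 1 of the rarest members. Neighbouring levels among these 3 arms did not keep their order, since miR-30c-1* exceeded miR-30d* in 4 of 6 libraries and miR-30d* exceeded miR-30c-2* in 4 of 6. The order miR-30a*, miR-30e*, miR-30b* held in each library, with miR-30a* above miR-30e* by 1.48-fold to 2.40-fold and miR-30e* above miR-30b* by 16.8-fold to 44.6-fold.

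All 5 star arms tested had a log2 fold change below 0, with a median of -0.93. Below 0 lay 49.6% of all 399 miRNAs and 68.8% of the 93 tested miRNAs with a star in their name, whose median was -0.12. miR-30d* stood at -1.16 (standard error 0.625), miR-30a* at -1.10 (standard error 0.462), miR-30b* at -0.93 (standard error 0.435), miR-30e* at -0.64 (standard error 0.413) and miR-30c-1* at -0.46 (standard error 0.565). Wild-type replicate 1 set much of the size of these values. Without it miR-30a* stood at -0.43 (adjusted p = 0.771 in edgeR) and miR-30e* at -0.11, while miR-30d* turned to 0.13 and miR-30c-1* to 0.49. miR-30b* kept -0.77.

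**Figure D2:**
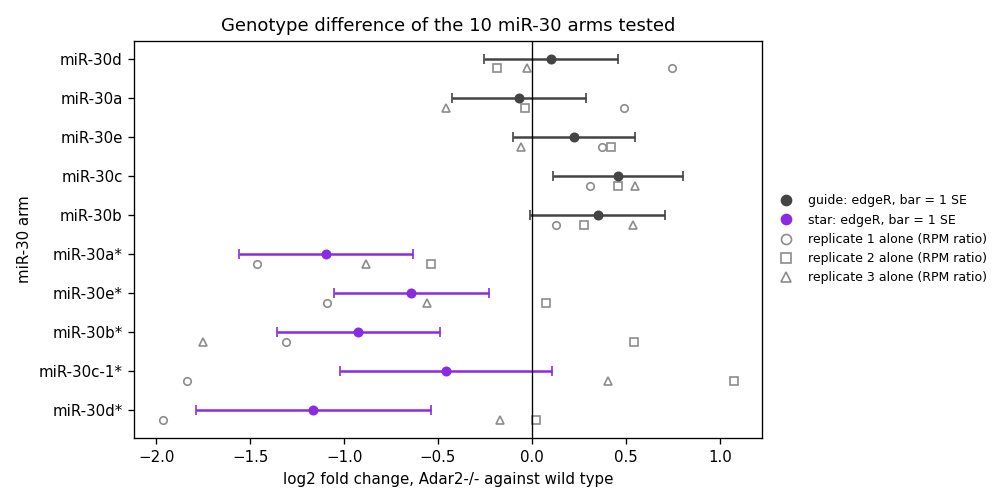
Log2 fold change of Adar2-/- against wild type for the 10 miR-30 arms tested. Filled points are edgeR estimates with bars of 1 standard error, grey for guides and purple for star arms, and open symbols below them are the log2 RPM ratios of single replicate numbers. The 5 star estimates lie between -1.16 and -0.46, the 5 guide estimates between -0.07 and 0.46, and for miR-30a*, miR-30e*, miR-30d* and miR-30c-1* replicate 1 (circle) is the lowest of the 3 ratios.

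A second criterion, applied to the same 399 miRNAs, required each of the 3 replicate numbers to point one way and the group means to differ by 1.3-fold or more. It depends on which libraries share a number, and over the 399 miRNAs the numbers did not pair the libraries in their values. miR-30c met it upwards, with a ratio of 1.37, as did 5.51% of the 399 miRNAs. miR-30a* met it downwards, with a ratio of 0.467 and with 0.362, 0.688 and 0.541 in replicate numbers 1 to 3, as did 4.26% of the 399 miRNAs. No other member met it. miR-30b kept 1 direction but had a ratio of 1.28. For miR-30c the libraries of the genotypes still overlapped, as they did for every one of the 11 members, against 5.76% of the 399 miRNAs whose libraries did not overlap, 2.76% with Adar2-/- higher and 3.01% with it lower. At 1.5-fold miR-30c no longer met the criterion.

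The ratio of star to guide reads within a library does not depend on library size. For Mir30a, Mir30b, Mir30d and Mir30e both arms come from 1 hairpin, whereas the guide reads set against miR-30c-1* and miR-30c-2* are those of miR-30c from both of its hairpins. For Mir30a the log2 ratio was -1.64, -4.06 and -4.18 in the wild-type libraries, replicates 1 to 3, and -3.59, -4.56 and -4.61 in the Adar2-/- libraries. In reads, miR-30a* made up 24.3% of both arms in wild-type replicate 1, 5.67% and 5.24% in the other wild-type libraries and 7.64%, 4.07% and 3.94% in Adar2-/-. For Mir30e the log2 ratio was -0.52, -2.32 and -2.32 in wild type and -1.98, -2.66 and -2.83 in Adar2-/-. miR-30e* made up 41.0% of both arms in wild-type replicate 1 and 12.4% to 20.2% in the other 5 libraries. Replicate 1 thus had the highest star share of its genotype for both hairpins, and the wild-type library the highest of all.

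The 95% Wilson interval of such a share had a half-width of at most 1.15 percentage points and covers counting error only. Between the hairpins the share differed widely. miR-30d* made up 0.0150% to 0.192% of both arms, miR-30b* 2.67% to 15.6%, and miR-30c-1* and miR-30c-2* together 0.509% to 2.85%.

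All 6 star to guide ratios were lower in Adar2-/- on average, by 0.96 for miR-30a*, 1.15 for miR-30b*, 0.77 for miR-30e*, 0.88 for miR-30d*, 0.56 for miR-30c-1* and 0.24 for miR-30c-2* on the log2 scale (differences of -0.96, -1.15, -0.77, -0.88, -0.56 and -0.24). None differed beyond the spread between libraries, with p from 0.3 to 0.8 in two-sided exact permutation tests and 0.88 for each after adjustment over the 11 ratios tested. The smallest p that 3 libraries against 3 allow is 0.1. Among 69 hairpins outside the family 68.1% had a lower ratio in Adar2-/-, with a median difference of -0.24, and 13.0% had genotypes that did not overlap, whereas all 6 ratios of the family overlapped. In the same 69 hairpins the median log2 ratio was -2.37 in wild-type replicate 1 and -3.07 to -2.89 in the other 5 libraries.

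Without wild-type replicate 1 alone the difference shrank to -0.14 for miR-30a* and -0.17 for miR-30e*. With replicate 1 of both genotypes left out, which was decided on once the values were known, it was -0.47 for miR-30a*, -1.01 for miR-30b* and -0.42 for miR-30e*, and it turned to 0.24 for miR-30c-1*, 0.55 for miR-30c-2* and 0.03 for miR-30d*. The summed pituitary miRNAs miR-375, miR-7a and miR-7b were highest in wild-type replicate 1, at 7459 RPM. They stood at 1289 and 1911 RPM in the other wild-type libraries and 1557 to 4714 RPM in Adar2-/-. Only miR-375 was particular to wild-type replicate 1. miR-7a was higher in Adar2-/- replicate 3 (3585 against 2976 RPM) and miR-7b nearly as high there (1074 against 1189 RPM). In Adar2-/- replicate 3 miR-375 stood at 55.4 RPM and miR-30a* at 913 RPM, the lowest miR-30a* level of the 6 libraries. The part of pituitary miRNAs in the star arm values was not tested. Wild-type replicate 1 also had the fewest mapped reads, 12449633, and depth as a cause was not tested.

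**Figure D3:**
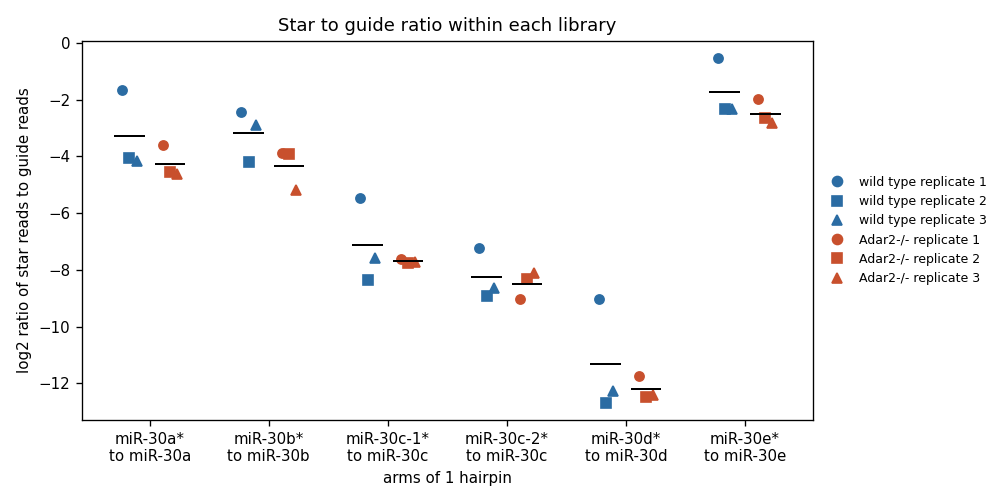
Log2 ratio of star reads to guide reads within each library for the 6 miR-30 star arms. Symbols are single libraries (blue wild type, orange Adar2-/-, shape by replicate number) and black lines are means of 3. Wild-type replicate 1 (blue circle) has the highest ratio for each star arm, and no arm separates the genotypes.

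The ratio of miR-30a* to miR-30e* was the only 1 of the 11 ratios in which the genotypes did not overlap. Its log2 value was 1.27, 1.18 and 0.91 in wild-type replicates 1 to 3 (1.12 ± 0.18, SD, n = 3). In the Adar2-/- libraries it was 0.89, 0.56 and 0.59 (0.68 ± 0.18, SD, n = 3). The lowest wild-type value, 0.913, lay just above the highest Adar2-/- value, 0.892. The difference of -0.44 gave p = 0.1 in the two-sided exact permutation test, the smallest this design allows, and 0.88 after adjustment over the 11 ratios. It was -0.37, -0.61 and -0.32 in replicate numbers 1 to 3, and it stayed between -0.54 and -0.36 when any library was left out and at -0.47 without replicate 1. As a share, miR-30a* made up 70.6%, 69.3% and 65.3% of the reads of both star arms in wild type and 65.0%, 59.6% and 60.1% in Adar2-/-. Over all 4278 pairs of tested star-named miRNAs, 13.3% had ratios that did not overlap between the genotypes.

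This ratio compares 2 star arms that are identical apart from 1 base. The arms are printed again with this base in capitals, at position 18 counted from 1 at the 5′ end.
miR-30a*: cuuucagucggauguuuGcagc
miR-30e*: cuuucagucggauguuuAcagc
miR-30a* is encoded at chr1:23279154-23279175 and miR-30e* at chr4:120445223-120445244 on NCBIM37. From miR-30e* to miR-30a* the substitution is A18G, the same letters that A-to-I editing produces, since inosine is read as G. A read of miR-30e* with A18G would match miR-30a* without a mismatch. Reads and editing levels were not analysed here, so whether such reads were counted under miR-30a* was not tested. In the hairpins as folded by RNAfold, A at position 18 of miR-30e* paired with U at position 3 of miR-30e, and G at position 18 of miR-30a* paired with U at position 3 of miR-30a. The guides of these hairpins, miR-30a and miR-30e, also differ by 1 base, U13C from miR-30e to miR-30a, which is not an A-to-G change.

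**Figure D4:**
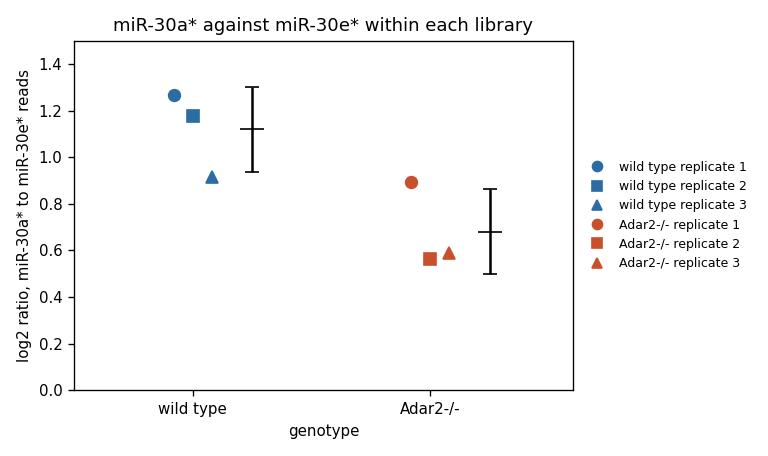
Log2 ratio of miR-30a* reads to miR-30e* reads within each library, by genotype. Symbols are single libraries with the shape giving the replicate number, and the bars are mean ± SD of 3 libraries. The wild-type libraries lie between 0.91 and 1.27 and the Adar2-/- libraries between 0.56 and 0.89.

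Neighbouring hairpins can be transcribed together, and ratios between arms of neighbours were compared for this reason. The log2 ratio of miR-30b to miR-30d was -5.91, -6.63 and -6.22 in wild type and -6.53, -6.17 and -5.65 in Adar2-/-, a difference of 0.14 (p = 0.7 in the two-sided exact permutation test). That of miR-30b* to miR-30d* was 0.68, 1.88 and 3.17 in wild type and 1.33, 2.40 and 1.58 in Adar2-/-, a difference of -0.13 (p = 0.9 in the same exact test). For the pair on chromosome 4, miR-30e* to miR-30c-1*, it was 6.05, 7.20 and 6.48 in wild type and 6.79, 6.20 and 5.52 in Adar2-/-, a difference of -0.41 (p = 0.5 in the exact test). For the pair on chromosome 1, miR-30a* to miR-30c-2*, it was 9.08, 8.93 and 8.47 in wild type and 9.10, 7.36 and 6.52 in Adar2-/-, a difference of -1.16 (p = 0.4 in the exact test). Adar2-/- replicate 3 had the lowest ratio of the 6 libraries for both of the last pairs, whereas Adar2-/- replicate 1 lay within the wild-type range on chromosome 4 and just above it on chromosome 1.

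Across the 6 libraries the log2 levels of the guides moved together to different degrees, which is given as a description of libraries that share their totals. Pearson's r was 0.97 between miR-30b and miR-30c, which come from different hairpin pairs, and 0.89 between miR-30a and miR-30d, whereas it was 0.59 between the neighbours miR-30b and miR-30d. Over the 10 pairs of guides it ran from 0.54 to 0.97, with a median of 0.77. Between a guide and a star arm the median over 30 pairs was -0.71.

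Outside the family, the pattern most like that of the summed guides belonged to miR-153 (Pearson's r = 0.97 over 6 libraries), miR-340-3p (0.96) and miR-219-5p (0.95), and in each of these wild-type replicate 1 was the lowest library, for miR-153 with 5035 RPM against 6166 to 7927 RPM elsewhere. miR-219-5p, a miRNA of oligodendrocytes, stood at 73.0, 186 and 163 RPM in wild type and at 139, 158 and 189 RPM in Adar2-/-. miR-338-3p, another miRNA of these cells, was also lowest in wild-type replicate 1, at 211 RPM against 237 to 519 RPM elsewhere. Its partner arm miR-338-5p went the other way, at 156 RPM in that library against 99.9 to 117 RPM elsewhere. The part of oligodendrocyte miRNAs in the guide levels was not tested. The patterns most like that of miR-30a* belonged to miR-338-5p (0.93), miR-543* (0.92) and miR-9 (0.92), for which wild-type replicate 1 was the highest library.

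Among the sequences held in RefSeq, the only other miRNA of the read tables with the seed of a member was miR-384-5p, which carries the seed of the miR-30 guides and is encoded on the X chromosome. It is printed here with the seed in capitals, and it differs from miR-30a at 10 of the 22 positions compared, all after the first 8.
miR-384-5p: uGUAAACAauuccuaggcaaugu
miR-384-5p stood at 109, 63.1 and 99.0 RPM in wild type and at 89.8, 108 and 153 RPM in Adar2-/-, well below each miR-30 guide. In edgeR it stood at 0.37 on the log2 scale, with a standard error of 0.350 and an adjusted p of 0.988. The Adar2-/- to wild-type ratio was 0.824, 1.71 and 1.55 in replicate numbers 1 to 3, so replicate 1 ran against the other two.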

How the data were processed

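Small RNAs of 19 to 25 nucleotides from 6 brains were ligated to adapters, amplified by 15 PCR cycles and sequenced by the authors, with a lane for each library. According to the methods, Cutadapt removed adapters and NextGenMap aligned the reads to mature sequences from miRBase, allowing mismatches, so reads can move between arms that differ by 1 base. Reverse-strand hits were discarded and reads with equally good hits weighted. The authors deposited raw read counts in 3 tables, a pair of genotypes in each, from which 12 blank lines were removed. Cutadapt's version was not given in the sources used here. Ligation depends on sequence, so levels of different miRNAs carry this bias.

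The quasi-likelihood test of edgeR 4.0.16 (R 4.3.3) was run on the 399 miRNAs that reached 100 reads in each library. Total mapped miRNA reads were the library sizes, without scaling factor or block, and p-values were adjusted by Benjamini-Hochberg with a threshold of 0.05. The test gives no standard error. Each standard error printed here is the absolute log2 fold change divided by the square root of the F statistic of the test. Ratios within a library went into exact permutation tests, two-sided. For correlations, 1 was added to the RPM before taking log2. For the star shares of Mir30a, Mir30b, Mir30d and Mir30e, 95% Wilson intervals were computed. The members were named by the rule above, the seed was searched in RefSeq, and the 3 most similar miRNAs were taken by Pearson's r for the guide sum and for miR-30a*. Members, lists and tests were chosen with earlier results of these data known. Hairpins were placed on NCBIM37 and folded with RNAfold of ViennaRNA 2.7.2. DESeq2 1.42.0 was an alternative, beside TMM factors, other totals, other minimums, a block and left-out libraries. The edgeR fit was tested on simulated counts for the 399 miRNAs. In the simulation 100 miRNAs were changed 2-fold, 100 were changed 4-fold and 199 were left unchanged. At the adjusted threshold the fit called 46% of those changed 2-fold, 99% of those changed 4-fold and 3.52% of those unchanged. So many changed miRNAs make this threshold easier to pass, so these shares do not hold where few miRNAs change. A 2-fold change can thus go uncalled in this design. Other values came from Python 3.11.15 with scipy 1.17.1. Of the marker lists, the choroid plexus miRNAs summed to 5171 to 6002 RPM in wild type and 2220 to 9010 RPM in Adar2-/-. Members of this list went opposite ways in Adar2-/- replicate 3, which had the lowest sum. There miR-204 was at its highest, 1621 RPM, and miR-200b and miR-429 at their lowest, 348 and 231 RPM. The miRNAs of blood summed to 420 to 1540 RPM in wild type and 1063 to 1479 RPM in Adar2-/-. Those of vessels summed to 49849 to 75100 and 48138 to 58636 RPM, and miR-338-3p of oligodendrocytes stood at 211 to 387 and 237 to 519 RPM. The oligodendrocyte list also named miR-219, which the tables list only by arm, as miR-219-5p and miR-219-3p, so the list's sum leaves it out.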

Additional observations from a re-analysis of the deposited data

How the results depend on the processing

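Each of the 10 log2 fold changes was refitted under 16 other settings, and no member passed the adjusted threshold in any of these 160 fits, whose adjusted p ran from 0.201 to 1.00. The direction turned in 9 of them, each with libraries left out, within -0.34 to 0.17 for miR-30a, -0.88 to 0.65 for miR-30c-1*, -0.17 to 0.35 for miR-30d and -1.55 to 0.13 for miR-30d*. Members with an unadjusted p under 0.05 numbered 0 with TMM factors (19 of all 399 miRNAs) and with totals without the 5 most abundant miRNAs (16 of 399), 3 with DESeq2 (40 of 399) and with no minimum of reads (38 of 1042), and 0 to 3 with libraries left out (4 to 87 of 399, the most without replicate 1). By the criterion of 1 direction and 1.3-fold, higher members numbered 0 with totals without the 5 most abundant miRNAs (20 of 399 miRNAs) and at 1.5-fold (12 of 399). They numbered 3 without replicate 1, where 141 of 399 miRNAs met it, 2 without replicate 2 (49 of 399) and 2 without replicate 3 (25 of 399). Lower members numbered 3, miR-30a*, miR-30d* and miR-30e*, with TMM factors (27 of 399) and with those totals (32 of 399). They numbered 4 without replicate 2, where 82 of 399 miRNAs met it, and 1 without replicate 1 (35 of 399) or replicate 3 (21 of 399), against 17 of 399 with all libraries.

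The genotype difference of the guide share was -0.0295 points with totals without the 5 most abundant miRNAs and ran from -0.886 to 0.762 with a library left out. Differences in log2 ratios ran, with libraries left out, from -1.17 to 0.28 for miR-30c-1* to miR-30c, from -0.56 to 0.55 for miR-30c-2* to miR-30c, from -1.56 to 0.28 for miR-30d* to miR-30d, from -0.10 to 0.52 for miR-30b to miR-30d and from -0.75 to 0.50 for miR-30b* to miR-30d*. The cause of these reversals was not tested beyond the libraries named. The other ratios kept their direction with libraries left out, but not their size. miR-30e* to miR-30c-1* stood at -0.08 without Adar2-/- replicate 3, -0.09 without wild-type replicate 2, -0.67 without wild-type replicate 1, -0.72 without Adar2-/- replicate 1 and -0.98 without replicate 1 of both. miR-30a* to miR-30c-2* stood at -0.59 without Adar2-/- replicate 3, -1.89 without Adar2-/- replicate 1 and -1.76 without replicate 1 of both, and miR-30b* to miR-30b at -0.72 without Adar2-/- replicate 3.

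Over the tested miRNAs replicate numbers did not pair the libraries, since deviations of same-numbered libraries correlated at -0.08 to 0.0010. No library correlated best with its own number. The members of the family were not checked on their own. With the replicate block, 1 member had an unadjusted p under 0.05 and none passed the adjusted threshold. The block left the differences of ratios as they were, and 3 pairs cannot reach p below 0.25 in the exact test. The arms with the fewest reads were miR-30c-2* (55 to 239 in a library), miR-30c-1* (107 to 350) and miR-30d* (121 to 378).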
